A study of Homo sapiens with 16 samples.

Results

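The comparison of MDM2 W329G with wild type in U2OS cells treated with 5-fluorouracil (5-FU) rests on 8 of the 16 libraries of the series. They were chosen by their titles, as all libraries under 5-FU, 4 of each genotype. U2OS is a human osteosarcoma line that has kept wild-type p53. The isogenic wild-type (WT) and MDM2 W329G cells were made with Crispr/Cas9 editing, and both groups received 50 µM 5-FU for 24 h. Each genotype is represented by 2 cell numbers, cells 1 and cells 2, each of which was run in 2 independent experiments read by different vendors. Experiment 1 gave replicate 1 (cells 1) and replicate 2 (cells 2), and experiment 2 gave replicate 3 (cells 1) and replicate 4 (cells 2). The other 8 libraries, DMSO-treated cells of the same 2 genotypes, serve only for contrast. So each genotype rests on 2 lines, each given the same drug at a single dose and time. Whether a cell number is a single clone is not given in the sources used here.

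MDM2 is the ubiquitin ligase that holds p53 at a low level, and its own gene is a p53 target, so the pair forms a feedback loop. W329G replaces a tryptophan with a glycine in the central zinc finger region of MDM2, the part that ribosomal proteins bind. 5-FU blocks thymidylate synthase and also enters RNA, where it disturbs the processing of ribosomal RNA, and ribosomal proteins set free in this way can hold MDM2 off p53. Active p53 raises inhibitors of the cell cycle such as p21, death receptors, repair enzymes and its own brakes. Through p21 and the RB family it also lowers genes driven by E2F factors, which make the machinery of DNA replication. The comparison asks how RNA levels under the drug differ between the genotypes.

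Total counts per library ran from 24715999 to 45063476 under 5-FU. Values are given as CPM (counts scaled to library size) in replicate order, and they compare a gene between libraries, not genes with each other. Between the 8 libraries, experiment was the first principal component (69.8% of the variance of log2 CPM over 11430 genes of at least 5 CPM) and genotype the next (15.4%). The third (6.9%) separated the cell numbers, but with opposite sign in the experiments. Across genes, the difference of cells 1 and cells 2 in experiment 1 ran against that in experiment 2 (r = -0.42 in WT, -0.73 in W329G), so a cell number may not name the same line in both experiments. The main test uses genotype and experiment only and no cell number. Where libraries of a line are summed, values for lists and named genes use the numbers exchanged in experiment 2. Total counts are given by label as well, near the end. Libraries of a line are not fully independent, and the labels name no separate cultures, so each p-value reflects only how far these libraries scatter, which may be technical.

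**Figure D1:**
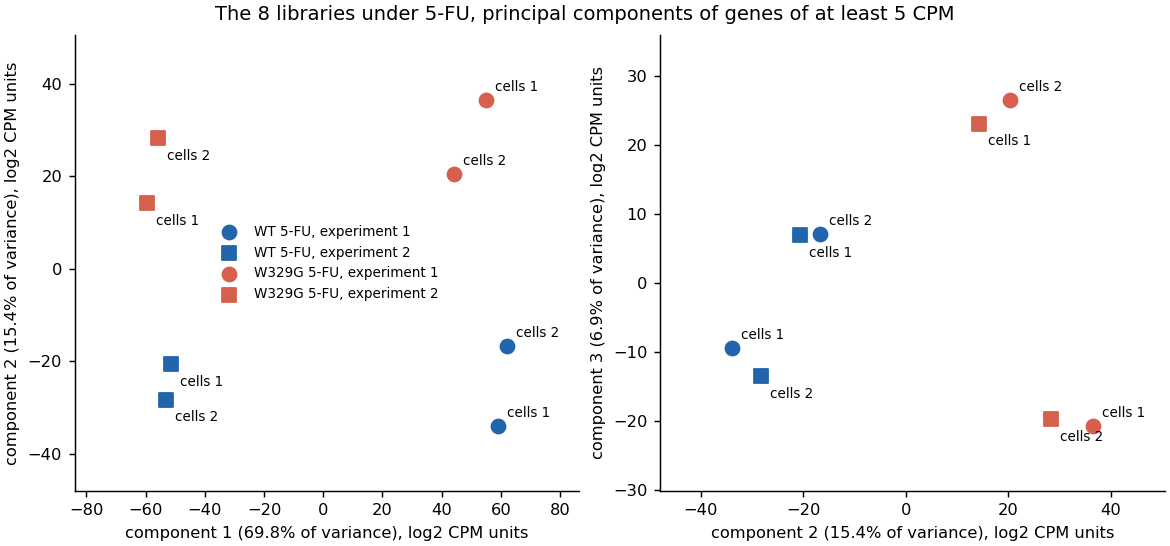
Principal components of the 8 libraries under 5-FU on log2 CPM, components 1 and 2 on the left, 2 and 3 on the right; colour is genotype, shape is experiment, and labels give the cell number. Every W329G library lies above every WT library on component 2 (14.25 to 36.47 against -33.9 to -16.69), and on component 3 cells 1 of experiment 1 lie with cells 2 of experiment 2 in each genotype.

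Mitochondrially encoded genes held between 7.98%, in W329G replicate 1, and 31.84%, in WT replicate 1, of the joined counts. The means were 24.20% ± 5.85 in WT and 18.18% ± 7.55 in W329G (SD, n = 4), which an exact two-sided permutation test did not separate (p = 0.2857; the smallest p for 4 against 4 is 0.0286). All 10 mesenchymal and osteoblast markers, VIM and COL1A1 among them, averaged at least 1 CPM. So did all 10 epithelial markers, 8 of 10 neural, 3 of 10 blood and 2 of 6 endothelial ones. This count alone therefore does not bear out the label of the line, and COL1A2 ran from only 0.2476 to 9.019 CPM in WT. Of 10 blood markers 2 were at 0 in all 8 libraries, HBB among them, and of 10 neural ones SOX10. The summed blood list ranged from 15.886 to 119.16 CPM in WT and from 17.55 to 138.02 CPM in W329G, mostly through LYZ, which stood at 107.7, 91.17, 0 and 0.0722 CPM in WT and at 91.14, 129.6, 0.0494 and 0 CPM in W329G. KRT19, a keratin of simple epithelia, was likewise above 20 CPM in all 4 libraries of experiment 1 and below 0.03 CPM in experiment 2. Both genes thus went with the experiment, not with the genotype, and the experiment is a term of the test. The summed CPM of the 10 epithelial markers ranged from 314.6 to 768.4 in WT and from 140.16 to 689.67 in W329G. That of the neural list ranged from 197.06 to 415.71 in WT and from 234.49 to 300.06 in W329G, and that of 6 endothelial markers from 1.8534 to 10.755 and from 1.8194 to 14.322. Of the neural markers SYP was called lower and SNAP25 higher by the test below (log2 differences -1.72 ± 0.35 and 0.78 ± 0.21). The part of these levels in the results below was not tested.

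Under 5-FU, 1905 of 15794 tested genes differed between the genotypes (12.1%), 918 of them higher in W329G (5.81%) and 987 lower (6.25%). A gene counts as called at an adjusted p below 0.05 (edgeR's quasi-likelihood test, Benjamini-Hochberg) with the same sign in both experiments. Of the calls, 718 reached a log2 difference of 1 in size, 277 higher and 441 lower in W329G. The median difference over all tested genes was -0.02 (log2), so the bulk of the transcriptome was centred near 0. Across the 11398 genes of at least 5 CPM, the differences of experiment 1 and experiment 2 correlated with r = 0.77.

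The number of calls depended on how the lines were treated. With libraries summed per line, numbers exchanged, 26 genes were called at adjusted p below 0.05, 2 higher and 24 lower, and 25 of these were among the 1905. All 1905 kept their sign there. They included the p53 targets CDKN1A, BBC3, BTG2, EDA2R, FAS, FDXR, RPS27L, RRM2B and TP53INP1 on the lower side, and E2F2 and RRM2 as the only higher genes. With exchanged numbers and the line as a random block (limma-voom), 342 genes were higher and 411 lower. Without replicate 1 of both genotypes, the libraries of highest and lowest mitochondrial share, 340 were higher and 417 lower. Leaving out single libraries lowered both counts by more than 1.5 times for WT replicate 1 (450 higher, 483 lower), WT replicate 4 (468 and 547), W329G replicate 1 (581 and 646) and W329G replicate 4 (470 and 515). Of the 147 called genes named here, 114 kept their call without any 1 library. The other 33 lost it without at least 1 (adjusted p up to 0.152): ALPL, ATF3, ATF4, BID, BMP4, CCND1, CDKN1B, CEBPG, ENO2, FANCC, FN1, FOSB, GSR, IFI44L, IGFL3, ISG20, KRT5, NOLC1, OAS3, PAPPA2, PFKFB4, PGM1, POLH, RPS19, SERPINB5, SHOC1, SLC16A1, SLC7A1, SNAP25, SPSB4, SYP, TIGAR and TK1.

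**Figure D2:**
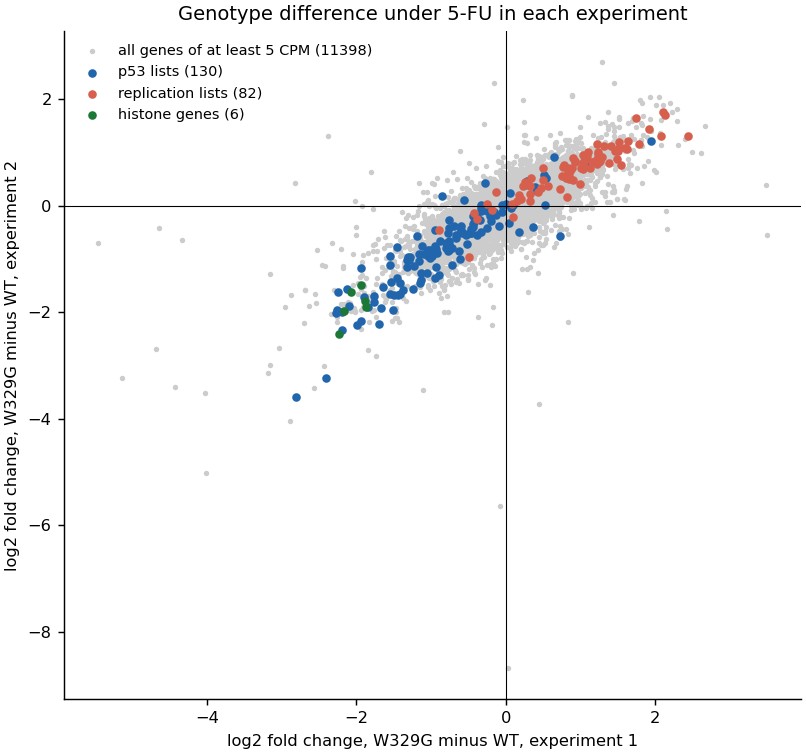
Log2 difference W329G minus WT under 5-FU in experiment 1 (horizontal) and experiment 2 (vertical) for each gene of at least 5 CPM, with the p53 lists, the replication lists and the histone genes in colour. p53 target genes lie mostly at the lower left and replication genes at the upper right; across all 11398 genes r = 0.77.

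The p53 program stood lower in W329G cells. Of 153 genes in 7 lists of p53 regulators and targets, 147 were tested, and 86 of these were called lower and 4 higher, against 6.25% and 5.81% of all genes. Their median log2 difference was -0.81, against -0.02 over all genes. Relative to the WT mean of the same experiment, the median over these genes was -0.84, -0.78, -0.68 and -0.78 in the 4 W329G libraries, and within 0.05 of 0 in the WT libraries. The WT libraries enter that mean themselves, so their closeness to 0 is partly built in. Without replicate 1 of both genotypes, 67 were lower and 2 higher. With exchanged numbers, 69 were lower and 1 higher with the line as a random block, and 10 were lower by sums per line.

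Of 12 feedback regulators, 6 were lower and 1 higher. MDM2 itself (ENSG00000135679, chromosome 12, 68808176 to 68850686, plus strand) measured 202, 192, 286 and 236 CPM in WT and 75, 58.1, 65.4 and 102 CPM in W329G. The groups did not overlap, and the log2 difference was -1.62 ± 0.16 (SE; adjusted p = 0.00096, edgeR). Gene-level counts carry no information on the edited codon, so the genotype labels were not checked by them. TP53INP1, a p53 target that helps p53 turn to apoptosis, stood at 70.5, 66.4, 98.4 and 136 CPM in WT and at 14.8, 14.9, 26.4 and 20.5 CPM in W329G (log2 difference -2.28 ± 0.14). PPM1D, the WIP1 phosphatase that switches p53 signalling off, was at 104, 134, 157 and 104 CPM in WT and 58.6, 56.3, 69.6 and 67.6 CPM in W329G. CCNG1, which encodes cyclin G1, ran from 170 to 194 CPM in WT and from 103 to 111 CPM in W329G. All 3 were called, and in each every W329G library lay below every WT library. PHLDA3, an inhibitor of AKT, and TRIAP1, a small inhibitor of apoptosis, were lower by -1.15 ± 0.13 and -1.02 ± 0.11. MDM4, the partner of MDM2, did not pass (0.13 ± 0.20). TP73, the p53 relative that is also an E2F target, was the single higher member, at 4.66, 1.84, 7.16 and 11.1 CPM in WT and 15.1, 9.39, 21.5 and 21.5 CPM in W329G (1.55 ± 0.31). Its groups overlapped across experiments but not within either one.

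Among 16 arrest genes, 9 were lower and 1 higher. CDKN1A (ENSG00000124762, chromosome 6, 36676460 to 36687339), which encodes p21, stood at 845, 1071, 422 and 377 CPM in WT and at 238, 177, 111 and 92 CPM in W329G. The lowest WT library exceeded the highest W329G library, and the log2 difference was -2.11 ± 0.15 (adjusted p = 0.000222). BTG2, an antiproliferative gene, measured 104, 116, 98.3 and 76.3 CPM in WT and 29.9, 24.7, 21.1 and 16.6 CPM in W329G. The BTG2 libraries did not overlap either (-2.13 ± 0.14). ZMAT3, an RNA-binding tumour suppressor, GADD45A, a stress sensor, and TOB1, a relative of BTG2, were lower by -1.87 ± 0.22, -1.35 ± 0.19 and -1.31 ± 0.14. CDKN1B, which encodes p27, went the other way, at 37.4, 20.1, 23.3 and 23.1 CPM in WT and 76.6, 43.9, 31.2 and 47.2 CPM in W329G (0.90 ± 0.25, adjusted p = 0.0457). Its groups overlapped, and its call was lost without any 1 of 6 libraries (adjusted p from 0.0609 to 0.126).

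Of 20 apoptosis genes tested, 9 were lower, 1 was higher and 10 did not pass. The death receptor gene FAS stood at 83.5, 80, 69.7 and 51.1 CPM in WT and at 25.3, 24.7, 13.2 and 13 CPM in W329G (log2 difference -1.97 ± 0.15). BBC3, which encodes the BH3-only protein PUMA, stood at 57.4, 53.7, 38 and 32.5 CPM against 16, 13.4, 13.4 and 8.39 CPM (-1.82 ± 0.16). EDA2R, a receptor of the TNF family, stood at 70.5, 61.4, 98.8 and 90 CPM against 27.9, 27.1, 35.4 and 29.1 CPM (-1.42 ± 0.12). None of the 3 overlapped between genotypes. BAX, the pore-forming effector, was lower by -1.14 ± 0.12, the nuclease gene AEN by -1.02 ± 0.14, and TNFRSF10B, a TRAIL receptor, by -0.83 ± 0.11. PMAIP1, which encodes NOXA, had -0.55 ± 0.20 and CASP10, an initiator caspase, -0.99 ± 0.71, and neither passed. BID, which links death receptors to mitochondria, was the higher member (21.3, 21.6, 8.73 and 5.25 CPM in WT, 28.8, 37.6, 15.9 and 10.7 CPM in W329G, 0.76 ± 0.20, adjusted p = 0.0414). The BID groups overlapped, and its call was lost without any 1 of 6 libraries (adjusted p from 0.0556 to 0.101).

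Repair targets, 9 in all, held 5 lower and 1 higher call. RRM2B, the p53-induced small subunit of ribonucleotide reductase, stood at 416, 408, 291 and 259 CPM in WT and at 122, 89.5, 57.1 and 67.3 CPM in W329G, a log2 difference of -2.07 ± 0.14. The damage-recognition genes XPC (-1.26 ± 0.16) and DDB2 (-1.17 ± 0.14) of nucleotide excision repair and the translesion polymerase gene POLH (-0.51 ± 0.13) were lower too. FANCC, a Fanconi core complex gene, was higher by 0.52 ± 0.12, with 22.5 to 29.7 CPM in WT and 34.4 to 40.7 CPM in W329G.

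Metabolic, redox and autophagy targets had the largest share of calls among the p53 lists, 18 of 25, and all of them were lower. FDXR, the mitochondrial ferredoxin reductase, measured 256, 251, 137 and 114 CPM in WT and 65.6, 50.5, 35.5 and 33.6 CPM in W329G (log2 difference -2.01 ± 0.13). SESN1, a sestrin that restrains mTORC1, measured 31.8, 29.7, 30.1 and 23.7 CPM against 9.84, 6.93, 6.82 and 7.76 CPM (-1.89 ± 0.15). FUCA1, a lysosomal fucosidase, differed by -2.12 ± 0.23, DRAM1, a lysosomal membrane protein of autophagy, by -1.55 ± 0.12, and TIGAR, which turns glucose toward the pentose phosphate pathway, by -0.93 ± 0.22. For FDXR, SESN1, FUCA1 and DRAM1 no library of one genotype reached the range of the other, whereas TIGAR overlapped between experiments.

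In the list of secreted and surface targets 10 of 16 were lower and none was higher. GDF15, a stress cytokine, spread widely, with 45.7, 74.6, 14.2 and 3.39 CPM in WT and 7.84, 14.7, 1.36 and 0.565 CPM in W329G. The genotypes overlapped overall but not within an experiment, and the log2 difference was -2.78 ± 0.48 (adjusted p = 0.00775). CD82, a tetraspanin, showed the same layout, at 168, 60.5, 20.1 and 20.9 CPM against 25.3, 21.1, 4.75 and 5.52 CPM (-2.17 ± 0.28). SERPINB5, a serpin of epithelial cells, stood at 16.8, 24.7, 10.9 and 5.56 CPM against 0.531, 5.52, 1.38 and 0.0418 CPM (-3.17 ± 0.82, adjusted p = 0.0373). ORAI3, a calcium channel subunit, and NINJ1, a membrane rupture protein, were lower by -1.43 ± 0.18 and -0.94 ± 0.11. Of the 49 remaining p53 targets tested, 29 were lower and none higher, led by adjusted p by RPS27L, a ribosomal protein S27 paralog (274, 306, 184 and 184 CPM against 102, 120, 58.4 and 66.3 CPM), CYFIP2, a WAVE complex subunit (-1.82 ± 0.14), and INKA2, an inhibitor of PAK4 (-1.80 ± 0.16).

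**Figure D3:**
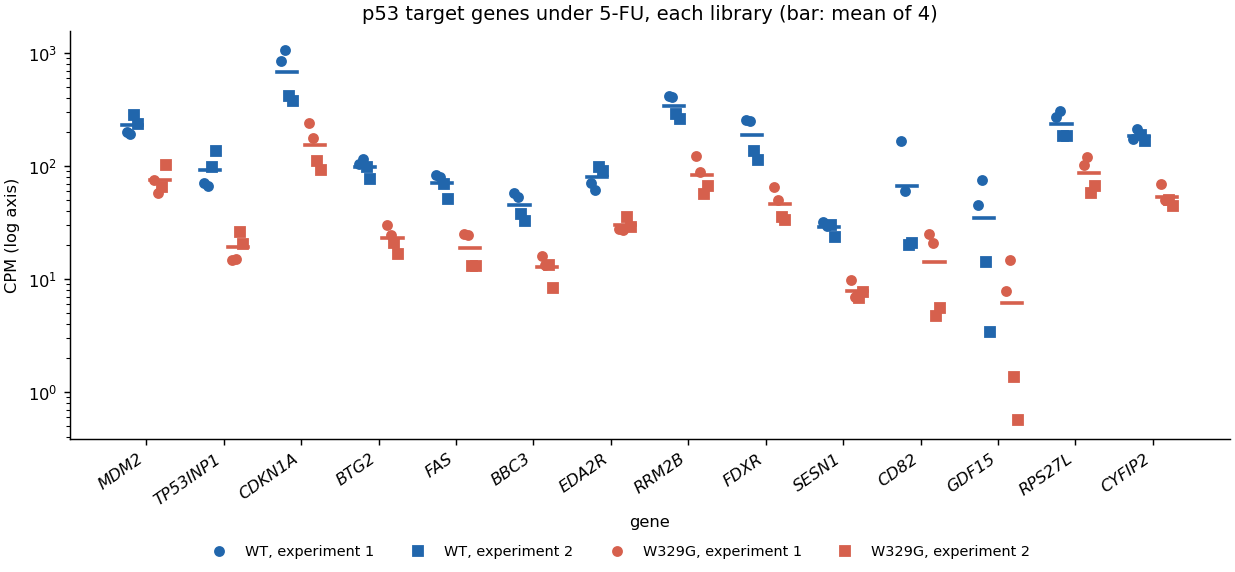
CPM of 14 p53 target genes under 5-FU on a log axis; each point is a library, shape gives the experiment, and the bar is the mean of 4. In experiment 1 and in experiment 2 the W329G points of every target shown lie below the WT points of the same experiment.

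The stretches below show where a p53 response element lies just before a RefSeq start of called p53 targets. They set the letters of these promoters beside the expression values. The element was searched as the 20-base p53 consensus, which reads the same on both strands, with its 4 core C and G bases kept and at most 3 mismatches elsewhere, from 250 bases before to 50 after each RefSeq start (GRCh38.p14). Of 35116 such windows 1.12% held it. By gene, it was found for 4.82% of the 768 lower genes with a window, 1.64% of the 732 higher ones and 1.59% of all 11960 tested ones. In the p53 lists, 11 of the 71 lower genes with a window held it (15.5%), so most had no match in these letters of this window. It was found for 20 of all 122 tested genes of these lists with a window (16.4%) and for 2 of the 4 higher ones. Within the lists, the lower genes thus held it no more often than the lists as a whole. By the deposited gene coordinates, the MDM2, FAS, SESN1, RPS27L and FDXR stretches lie inside the gene, so the start used there is an inner one. Of the matches that lie before a start, 6 are shown, with the match in capitals.
MDM2, chr12:68808918-68808947, plus strand, element starting 94 bases before the start: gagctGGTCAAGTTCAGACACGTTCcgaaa
FAS, chr10:88991304-88991333, plus strand, 122 bases before: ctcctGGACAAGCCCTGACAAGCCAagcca
SESN1, chr6:109009013-109009042, minus strand, 49 bases before: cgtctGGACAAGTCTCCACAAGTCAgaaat
RPS27L, chr15:63157522-63157551, minus strand, 69 bases before: aggagGGCCTAGAGCAGACAAGCCCgcccc
FDXR, chr17:74872995-74873024, minus strand, 21 bases before: ggcgggcccGGGCAGGAGCGGGCTTGCCCt
AEN, chr15:88621301-88621330, plus strand, 34 bases before: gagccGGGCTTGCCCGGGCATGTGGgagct
The MDM2, FAS and AEN elements have 2 mismatches to the consensus and those of SESN1, RPS27L and FDXR 3. A match describes letters and does not show binding.

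Outside the p53 lists, the largest decreases among genes of at least 5 CPM included some that were also called lower under DMSO and others that were not. GLMP (ENSG00000198715, chromosome 1, 156290089 to 156295689, minus strand), a lysosomal membrane glycoprotein, stood at 18.5, 13.9, 12.5 and 11.3 CPM in WT and at 0.683, 1.34, 0.272 and 0.46 CPM in W329G (log2 difference -4.50 ± 0.33, 22.6-fold). Under DMSO its difference was -4.58, and the exons of the opposite-strand gene TMEM79 overlap its own. TGM2, a transglutaminase, behaved alike, at 304, 158, 85.7 and 132 CPM against 26.3, 23.5, 11.6 and 13.4 CPM (-3.18 ± 0.23 under 5-FU, -2.80 under DMSO). CT45A1, a cancer-testis antigen of a family of near-identical copies, differed by -3.51 ± 0.58 under 5-FU and -3.59 under DMSO. These 3 were called under both treatments.

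NECTIN4 (chromosome 1, 161070995 to 161089599, minus strand), a cell adhesion molecule, stood at 53.2, 46.8, 12.6 and 18.6 CPM in WT and at 2.58, 3.5, 1.68 and 1.09 CPM in W329G under 5-FU (-3.80 ± 0.23), with -0.87 under DMSO. TSPAN11, a tetraspanin, stood at 36.2, 41.2, 20.7 and 14.6 CPM against 5.04, 3.47, 1.95 and 2.53 CPM (-3.10 ± 0.20, and -0.70 under DMSO). SLC52A1, a riboflavin transporter, stood at 13.5, 14.2, 10.3 and 6.69 CPM against 1.47, 1.88, 1.66 and 1.07 CPM (-2.86 ± 0.25, and -0.26 under DMSO). For all 3 the genotype by treatment term was called as well (adjusted p = 0.00216, 0.00731 and 0.0252, edgeR). GALNT5, which starts O-glycans, differed by -3.00 ± 0.38. C6orf15 (-4.20 ± 0.67), IGFL3, a member of the IGF-like family (-3.92 ± 0.93), and MYH16, a myosin pseudogene (-3.78 ± 0.67), had broad errors, and under DMSO they differed by -3.62, -2.90 and -2.37 without a call. In WT, C6orf15 ran from 7.43 to 101 CPM, IGFL3 from 0.698 to 26.3 CPM and MYH16 from 1.06 to 32 CPM, and IGFL3 overlapped the W329G libraries.

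Of the 10 epithelial markers, 2 were called lower, KRT5 and CLDN4 (-0.59 ± 0.12), and 8 were not called. KRT5, a basal keratin, stood at 16, 20.8, 0.405 and 0.0722 CPM in WT and at 0.607, 1.66, 0.223 and 0.0209 CPM in W329G (log2 difference -3.16 ± 0.82, adjusted p = 0.0373), so its level rests on experiment 1. Its call was lost without any 1 of 6 libraries (adjusted p from 0.0701 to 0.112). KRT14, the keratin that pairs with KRT5, was not called (log2 difference -0.446, adjusted p = 0.824), at 51.87, 8.208, 1.576 and 5.849 CPM in WT and 1.265, 32.42, 7.193 and 0.3764 CPM in W329G. ESRP1, an epithelial splicing factor (0.837), EPCAM (0.38) and CLDN7 (0.258) had positive differences without a call. The differences of KRT8 (-1.047), KRT18 (-0.544, adjusted p = 0.0698, edgeR), CDH1 (-0.122) and KRT19 (-0.113) were negative, also without a call. GRHL3, an epidermal transcription factor, stood at 2.29, 3.52, 3.29 and 1.28 CPM against 0.38, 0.433, 0.0742 and 0.146 CPM (-3.51 ± 0.49). KRT15 (-2.22 ± 0.44) and PADI4, a peptidyl arginine deiminase (-3.12 ± 0.46), stayed below 8 CPM in every library. GRHL3, KRT15 and PADI4 were chosen after their values were seen, so they stand for no gene group.

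Restraints on PI3K and AKT signalling held 4 lower calls among 16 and none higher, against 6.25% and 5.81% of all genes. The list's median was only -0.19, 5 members had positive differences, and with sums of exchanged numbers 1 was called. INPP5D, the SHIP1 inositol phosphatase, stood at 27.6, 12.3, 18.8 and 16.5 CPM in WT and at 2.88, 4.44, 2.35 and 2.07 CPM in W329G (log2 difference -2.74 ± 0.29). PIK3IP1, an inhibitor of PI3K, stood at 31.6, 23.5, 33 and 24.1 CPM against 7.51, 12.5, 8.97 and 4.43 CPM (-1.80 ± 0.28). SESN3, another sestrin, differed by -0.95 ± 0.20. The groups of the 3 genes did not overlap.

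Replication genes stood higher in W329G cells. Across 3 lists with 82 genes, all tested, 58 were higher and 1 was lower, with a median log2 difference of 0.84. Set against the WT mean of the experiment, the 4 W329G libraries had medians of 0.98, 0.90, 0.69 and 0.76, and the WT libraries lay within 0.03 of 0. Each WT library enters that mean, so its closeness to 0 is partly built in. Without replicate 1 of both genotypes 50 were higher and none lower. With exchanged numbers, 49 were higher with the line as a random block and 1 by sums per line. In bulk RNA, more cells in S phase and more of these RNAs per cell cannot be told apart.

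Of the E2F factors and G1/S cyclins 9 of 21 were higher. E2F2 (ENSG00000007968, chromosome 1, 23506430 to 23531220, minus strand), an activating E2F, stood at 9.87, 8.59, 26.3 and 31.6 CPM in WT and at 40.8, 38.6, 99.9 and 91.8 CPM in W329G (log2 difference 1.89 ± 0.13). E2F1 stood at 15.6, 15.4, 42.9 and 34.8 CPM against 42.7, 50, 92.1 and 75.5 CPM (1.32 ± 0.15), and the repressor E2F8 at 6.27, 5.65, 14.2 and 13 CPM against 23.9, 20.6, 36.2 and 38 CPM (1.65 ± 0.14). For each, the W329G libraries lay above the WT libraries of the same experiment. The E cyclins CCNE1 (1.25 ± 0.13) and CCNE2 (1.81 ± 0.25), the phosphatase CDC25A (1.33 ± 0.14), and SKP2 (1.03 ± 0.10), which marks p27 for degradation, were higher as well. CCND1, cyclin D1, was the single lower member, at 338, 287, 175 and 240 CPM in WT and 172, 161, 143 and 163 CPM in W329G (-0.69 ± 0.15).

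Origin and helicase genes had 27 higher calls among 31 and none lower. CDT1, the licensing factor, stood at 31.4, 27.6, 33.7 and 31.6 CPM in WT and at 67, 68.9, 73.4 and 73.3 CPM in W329G (log2 difference 1.17 ± 0.10). CDC45, part of the active helicase, stood at 24.9, 23.3, 44.8 and 40 CPM against 66, 69.5, 94.5 and 88.2 CPM (1.28 ± 0.12). CLSPN, the checkpoint mediator claspin, stood at 21.6, 23.4, 34.4 and 24.3 CPM against 80.4, 68.3, 84 and 102 CPM (1.68 ± 0.14). In none of the 3 did the groups overlap. All 6 subunit genes of the MCM2-7 helicase were called higher, from MCM6 (0.76 ± 0.11) to MCM4 (1.25 ± 0.16), and so were the loader genes CDC6 (1.33 ± 0.16) and ORC1 (1.13 ± 0.19) and MCM10 (1.67 ± 0.21).

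Fork and chromatin assembly genes held 22 higher calls among 30. CHAF1A and CHAF1B, subunits of the histone chaperone CAF-1, were higher by 1.20 ± 0.10 and 1.91 ± 0.31, the primase gene PRIM1 by 1.40 ± 0.14 and the chromatin ATPase ATAD2 by 1.45 ± 0.16. For CHAF1A this meant 23.2, 22.7, 28 and 29.2 CPM in WT and 58.1, 54.4, 64.8 and 61.4 CPM in W329G, with no overlap. PCNA, the sliding clamp and also a p53 target, was an exception, at 198, 160, 150 and 148 CPM in WT and 124, 147, 136 and 116 CPM in W329G (-0.34 ± 0.12, adjusted p = 0.0988), and it was not called.

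**Figure D4:**
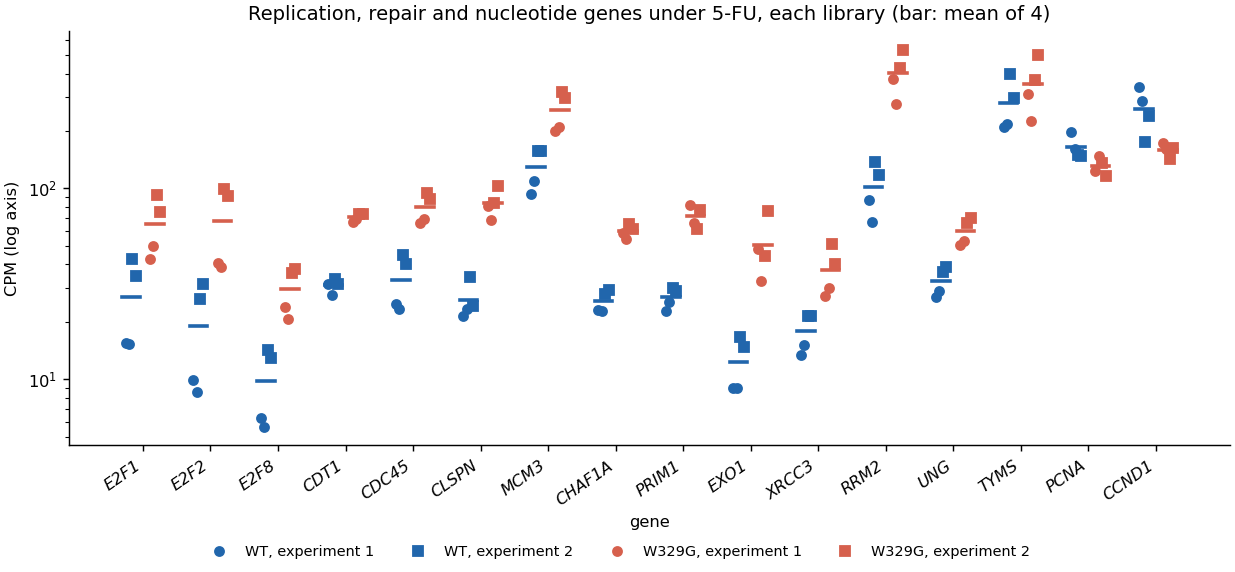
CPM of replication, repair and nucleotide genes under 5-FU on a log axis, points and bars as for the p53 genes. The W329G points lie above the WT points of the same experiment for the genes from E2F1 to UNG, whereas TYMS shows smaller steps, and PCNA and CCND1 lie lower.

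The promoters of the called replication genes are shown because E2F sites are a known feature of this class. The letters TTTCCCGC, TTTCGCGC, TTTGCCGC and TTTGGCGC were searched on both strands of the same windows, of which 3.31% held a match. By gene, they were found for 26 of the 47 higher replication genes with a window (55.3%), against 44.8% of all 67 tested replication genes with one. Among all genes called under 5-FU the share was 15.3% of the higher and 4.69% of the lower, and it was 6.15% of all tested. By the deposited gene coordinates, the CDT1 stretch lies inside the gene. The 6 called replication genes of smallest p with a match before a RefSeq start follow, with the match in capitals.
E2F2, chr1:23531257-23531286, minus strand, match starting 42 bases before the start: gcggcacgacgTTTGGCGCtaaaaaaaaaa
CDT1, chr16:88803743-88803772, plus strand, 35 bases before: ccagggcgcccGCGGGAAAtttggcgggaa
MCM3, chr6:52284898-52284927, minus strand, 174 bases before: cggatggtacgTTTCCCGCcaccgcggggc
CDC25A, chr3:48188443-48188472, minus strand, 44 bases before: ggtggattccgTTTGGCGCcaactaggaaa
MCM7, chr7:100101566-100101595, minus strand, 187 bases before: cagctcggaccGCGGGAAAcccggcgcctg
E2F1, chr20:33686400-33686429, minus strand, 33 bases before: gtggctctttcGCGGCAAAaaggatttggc
MCM3 and MCM7 were higher by 0.97 ± 0.10 and 0.92 ± 0.10.

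Genes of nucleotide supply and 5-FU metabolism had 13 higher calls among 29 and none lower, and the 2 small subunits of ribonucleotide reductase went opposite ways. RRM2 (ENSG00000171848, chromosome 2, 10122328 to 10131419, plus strand), the S-phase subunit, stood at 86.7, 66.6, 137 and 118 CPM in WT and at 372, 278, 425 and 531 CPM in W329G (log2 difference 1.98 ± 0.15, adjusted p = 0.000314), while RRM2B was lower as given above. The large subunit gene RRM1 was higher by 0.92 ± 0.13. TYMS, thymidylate synthase and the target of 5-FU, was not called, at 210, 219, 398 and 297 CPM in WT and 311, 226, 370 and 497 CPM in W329G (0.31 ± 0.16, adjusted p = 0.236). DUT, which removes dUTP (1.08 ± 0.15), UNG, which cuts uracil from DNA (0.85 ± 0.09), and TK1, thymidine kinase (0.81 ± 0.17), were higher. The count of 13 became 8 without W329G replicate 4 and 1 with sums of exchanged numbers. Thus 5 of the 7 genes named here were called higher, RRM2B was lower and TYMS did not pass.

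Homologous recombination and Fanconi genes had 26 higher calls among 36 and none lower, with a median log2 difference of 0.92, and 19 without replicate 1 of both genotypes. With sums of exchanged numbers none was called at adjusted p below 0.05 (edgeR), and 9 were with the 8 sums of both treatments in a single fit. EXO1, the resecting nuclease and the gene with the largest increase among those of at least 5 CPM, stood at 9.02, 8.96, 16.7 and 14.7 CPM in WT and at 48.4, 32.7, 44.2 and 76 CPM in W329G (2.04 ± 0.20). RAD51AP1 (1.65 ± 0.21), BRCA2 (1.58 ± 0.21), BRCA1 (1.17 ± 0.15), XRCC3 (1.04 ± 0.12) and FANCG (0.78 ± 0.09) were higher too. The groups of EXO1 did not overlap.

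Of the G2 and mitosis genes 22 of 66 were higher and none lower, with a median of 0.37, and 0.24 under DMSO. FOXM1, the factor that drives this class, was higher by 0.99 ± 0.20, MELK by 0.87 ± 0.11, the condensin gene NCAPG by 0.85 ± 0.11, CENPM by 0.85 ± 0.12 and CDK1 by 0.70 ± 0.11. The mitotic kinase gene PLK1 was not called (155, 119, 126 and 117 CPM in WT, 99.8, 115, 118 and 105 CPM in W329G), and neither was CCNB1, cyclin B1 (-0.22 ± 0.14). MKI67, the Ki-67 antigen, just missed the threshold (0.94 ± 0.27, adjusted p = 0.0503). Without replicate 1 of both genotypes, 11 of the 66 were higher, without W329G replicate 4 alone 14, and with sums of exchanged numbers none.

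Replication-dependent histone genes stood lower, against the direction of the other S-phase genes. Of 19 in the list 11 passed the filter on low counts, and 8 of these were lower and none higher, with a median of -1.85. H2BC21 stood at 32.6, 20, 20 and 30.2 CPM in WT and at 5.59, 5.42, 5.61 and 3.97 CPM in W329G (log2 difference -2.34 ± 0.22, adjusted p = 0.000698). H2BC12 (-2.09 ± 0.29), H3C10 (-1.99 ± 0.27), H4C8 (-1.90 ± 0.25) and H2BC5 (-1.85 ± 0.21) were lower too, and in H2BC5 the WT libraries held 36.8, 25.3, 17.5 and 22.3 CPM against 6.15, 10.5, 6.55 and 5.1 CPM. Most histone transcripts have no poly-A tail, so poly-A libraries hold the tailed minority, and copies of near-identical sequence may share reads. The list had a median of -1.04 under DMSO, with no call there. Without replicate 1 of both genotypes 7 were lower, and with sums of exchanged numbers none was.

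The largest increases beside EXO1 and RRM2 came from several classes. FAM111B, a protease gene of S phase, stood at 14.6, 8.46, 40.5 and 41.9 CPM in WT and at 87.5, 55.7, 94.2 and 139 CPM in W329G (log2 difference 2.04 ± 0.29). HUNK, a kinase of the AMPK family (chromosome 21, 31873315 to 32044633, plus strand), stood at 6.86, 6.16, 10.4 and 12.6 CPM against 39, 23.8, 32.2 and 38.1 CPM (1.92 ± 0.21, and 0.24 under DMSO). EFNA5, an ephrin ligand, stood at 3.05, 2.76, 3.58 and 3.25 CPM against 13.5, 10.1, 10.8 and 17.4 CPM (2.02 ± 0.21, and 1.12 under DMSO). No W329G library of the 3 reached down to the WT range. The orphan receptor gene GPR19 (2.02 ± 0.30), SUSD5 (1.97 ± 0.22) and SPSB4, a ubiquitin ligase adaptor (1.96 ± 0.49), followed. SHOC1, a meiotic crossover gene, and PAPPA2, a protease that cleaves IGF-binding proteins, had wide ranges. SHOC1 stood at 2.12, 13.5, 28.9 and 14.9 CPM against 18.4, 44.3, 90.1 and 75.2 CPM (1.94 ± 0.49), and PAPPA2 at 3.81, 14.7, 1.1 and 1.83 CPM against 24, 20.7, 10.5 and 8.89 CPM (1.95 ± 0.45). Both overlapped between genotypes.

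In most of the other lists the share of calls lay near or below the 12.1% of all genes. Of 79 cytosolic ribosomal protein genes 1 was called, RPS19, which was lower (966, 1004, 504 and 484 CPM in WT, 637, 679, 370 and 364 CPM in W329G, log2 difference -0.52 ± 0.10), and the list's median was -0.04. Ribosome biogenesis genes had 10 higher calls among 54 and none lower. This count became 3 without WT replicate 4, 4 without WT replicate 1, 5 without W329G replicate 4, 6 without W329G replicate 1, W329G replicate 2 or WT replicate 3, and 0 with sums of exchanged numbers. The called genes were led by BRIX1, an assembly factor of the large subunit (0.79 ± 0.12), NOLC1, a nucleolar chaperone (0.72 ± 0.15), and NOP2, an rRNA methyltransferase (0.68 ± 0.14). BRIX1 stood at 51.1, 49.4, 42.8 and 48.9 CPM against 72.6, 95.4, 83.2 and 83.5 CPM, with no overlap. Of 33 genes of glucose uptake and glycolysis 2 were higher and 2 lower. The neuronal-type enolase ENO2 (0.60 ± 0.14) and the lactate transporter SLC16A1 (0.51 ± 0.12) were the higher ones, PGM1 (-0.88 ± 0.17) and PFKFB4 (-0.61 ± 0.15) the lower ones. GAPDH (0.52 ± 0.21, adjusted p = 0.15) and the glucose transporter SLC2A1 (-0.39 ± 0.16, adjusted p = 0.154) were not called.

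Smaller counts came from the other lists. In the pentose phosphate and serine-folate list 2 of 18 were higher, SHMT1 (0.74 ± 0.13) and MTHFD1 (0.62 ± 0.12), and ALDH1L1, which consumes formyl folate, was lower at 32, 22.5, 12.3 and 16.6 CPM against 6, 10.3, 6.43 and 4.1 CPM (-1.62 ± 0.24). The amino acid response showed 3 higher calls among 27, ATF4 itself (0.54 ± 0.11), its partner CEBPG (0.79 ± 0.17) and the cationic amino acid transporter SLC7A1 (0.73 ± 0.17). For ATF4 this was a step from 198, 223, 208 and 209 CPM in WT to 356, 320, 295 and 266 CPM in W329G. Unfolded protein and heat shock genes had 2 lower calls among 32, DNAJC3 (-0.73 ± 0.10) and EDEM1 (-0.94 ± 0.17), and cholesterol synthesis genes none among 26 at adjusted p below 0.05 (edgeR). NF-kB genes had 2 lower among 25, RELB (-1.17 ± 0.17) and the inhibitor NFKBIE (-0.92 ± 0.17).

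Interferon-stimulated genes were split, with 3 of 29 lower and 2 higher. TAP1, a peptide transporter that p53 can induce, stood at 105, 108, 50 and 50 CPM in WT and at 51.5, 54.2, 28.5 and 26.1 CPM in W329G (log2 difference -0.96 ± 0.09), OASL differed by -1.88 ± 0.28 and ISG20 by -1.49 ± 0.34. IFI44L (1.08 ± 0.24) and OAS3 (0.91 ± 0.24) were the higher ones. Antioxidant genes had GSR higher (0.70 ± 0.15) and GPX1 lower (-0.84 ± 0.13) among 23. Immediate early genes had 3 lower calls among 22, DUSP5 (-0.997 ± 0.18), FOSB (-0.92 ± 0.23) and ATF3 (-0.64 ± 0.14). Among 30 matrix and osteoblast genes tested, COL3A1 stood out on the higher side, at 96.2, 187, 93.3 and 93.8 CPM in WT and 375, 335, 264 and 221 CPM in W329G (1.33 ± 0.19), with LOX, a collagen crosslinker (0.71 ± 0.14). FN1 (-0.94 ± 0.22), MMP2 (-0.74 ± 0.15), BMP4 (-1.67 ± 0.45) and ALPL (-1.72 ± 0.43) were lower. COL3A1 stood higher by 1.61 under DMSO too, where it did not pass (adjusted p = 0.0752).

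**Figure D5:**
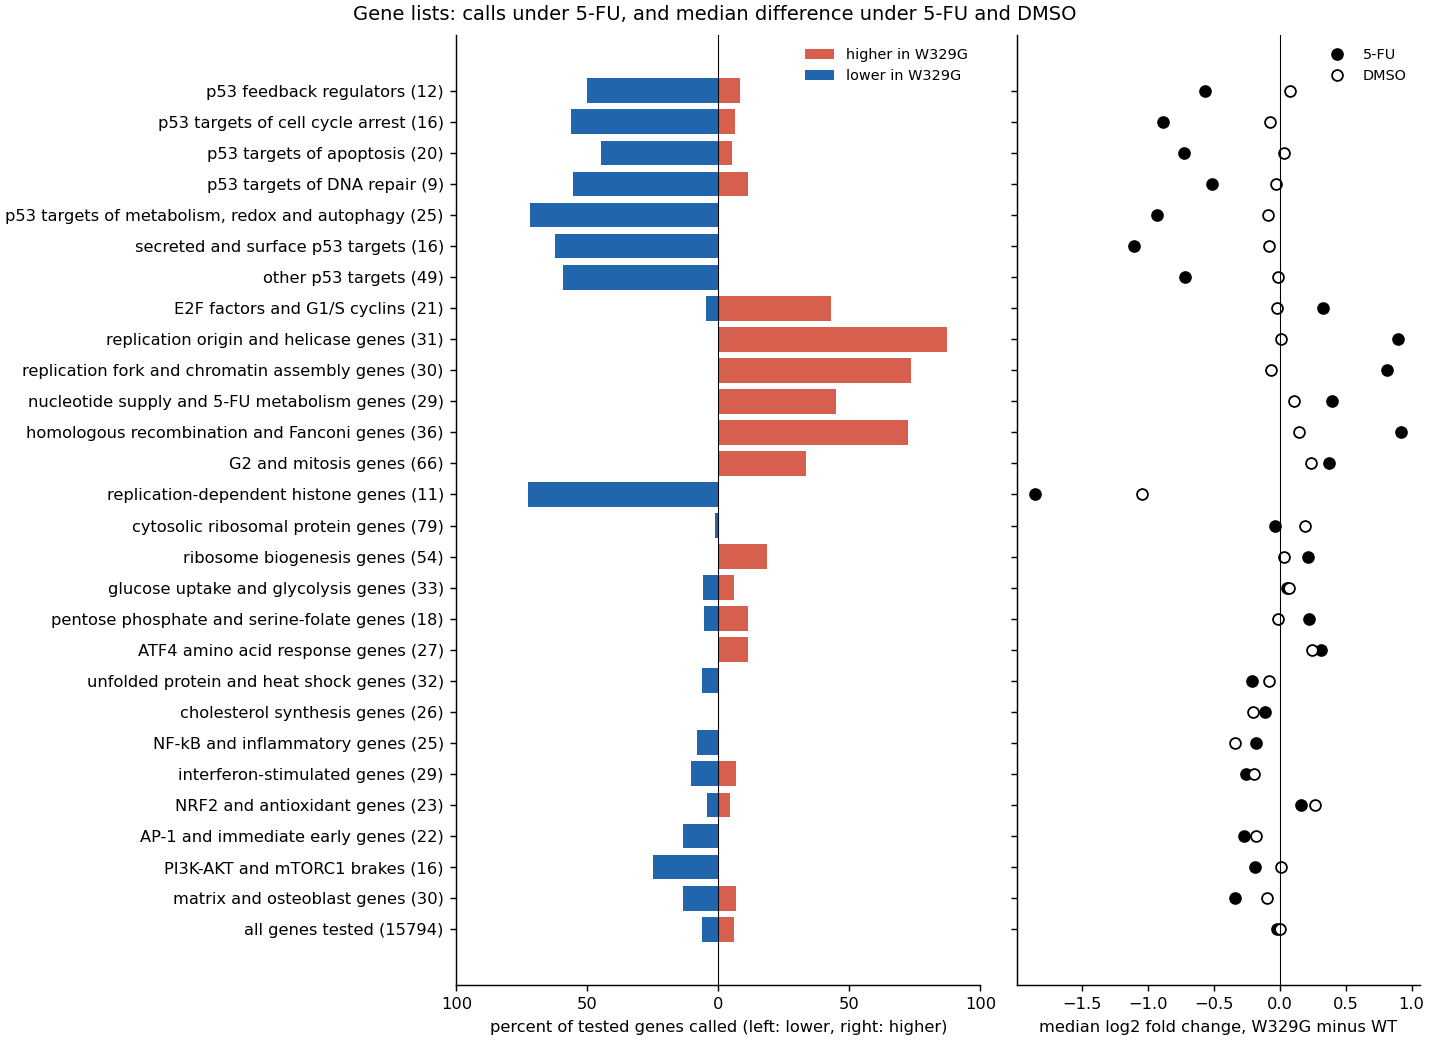
For each gene list (number tested in brackets), the left panel shows the percent called lower (to the left) and higher (to the right) in W329G under 5-FU, and the right panel the median log2 difference under 5-FU (filled) and under DMSO (open). The p53 and histone lists extend to the left, the replication and recombination lists to the right, and the bottom line gives all genes tested; under DMSO the medians of the p53 and replication lists lie near 0.

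Without the drug the same contrast gave few calls. Under DMSO 6 of 15361 genes were called (0.0391%), while 1843 had an unadjusted p below 0.05, against 4432 under 5-FU. The DMSO and 5-FU contrasts share no library but draw on the same lines and experiments, so agreement between them is not independent. All 6 DMSO calls were also called under 5-FU with the same sign, which is 0.315% of the 5-FU calls. They were GLMP, TGM2, CT45A1, ZNF154, a zinc finger gene (4.79, 4.23, 9.99 and 12 CPM in WT, 0.456, 0.253, 0.321 and 0.355 CPM in W329G under 5-FU), PRAG1, a pseudokinase (-1.99 ± 0.21 under 5-FU), and PAPPA2. Of the 1905 genes called under 5-FU, 1872 were tested under DMSO, and 1603 had the same sign there. The same-sign share over all tested genes is not given here. The median size of the called genes in the 5-FU direction was 0.30 under DMSO and 0.84 under 5-FU. The DMSO count varied with the method: it was 0 in experiment 1 alone (674 genes at an unadjusted p below 0.05, edgeR), 2 without an experiment term, 357 with DESeq2 and 594 without the filter on low counts. It was 3 without WT DMSO replicate 1 and 2 without WT DMSO replicate 4.

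Whether the genotype difference depends on the drug was tested on all 16 libraries. The genotype by treatment term was called for 198 of 16430 genes (1.21%), 114 with a positive and 84 with a negative sign. Leaving out WT 5-FU replicate 1 gave 125, WT 5-FU replicate 2 or W329G 5-FU replicate 1 gave 130, and W329G DMSO replicate 3 gave 131. With each line and experiment as a block, which pairs the DMSO and 5-FU libraries of a line, 1006 were called. With sums per line and exchanged numbers none was called at adjusted p below 0.05 (edgeR), with 859 at an unadjusted p below 0.05. Of 149 p53 genes tested, 34 had a negative and 1 a positive term, and of the 82 replication genes 38 had a positive and none a negative term. The term uses the same 5-FU libraries as the contrast above, so it is not separate evidence for these lists. MDM2 stood 0.25 higher in W329G than in WT under DMSO (log2) and differed by -1.62 under 5-FU. For CDKN1A the values were -0.36 and -2.11, for TP53INP1 0.32 and -2.28, for E2F2 0.15 and 1.89, and for CDT1 -0.13 and 1.17. GLMP, with -4.58 and -4.50, and TGM2, with -2.80 and -3.18, showed no call for the term (adjusted p = 0.99 and 0.858). The median over the p53 genes was -0.03 under DMSO and -0.81 under 5-FU, and that over the replication genes -0.01 and 0.84.

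In all, 1883 of the 15794 tested genes (11.9%) had libraries that did not overlap in CPM between the genotypes under 5-FU, and 1246 of these were called. Within each experiment, 1880 of the 1905 called genes did not overlap. A call already needs the same sign in both experiments, so this count is no separate support. The share over all tested genes is not given here. Exons of several genes named here overlap those of a neighbour with a larger count, on the opposite strand for XPC, CYFIP2, GLMP, CHAF1A, XRCC3, SHMT1, POLH and CCNE2. Their values are uncertain where the counting did not use strand. PRIM1 shares exon sequence with NACA on the same strand, whose counts are 8.36 times its own, so its value is uncertain with or without strand. The same holds for CHAF1B, whose exons overlap those of MORC3 on the same strand, with counts 0.728 times its own.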

How the data were processed

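The labels' protocols give poly-A selection and a TruSeq kit. Raw counts of each gene were deposited by the authors, with a file for every library. Per the file headers, experiment 1 lists Ensembl genes with exon coordinates and experiment 2 gene symbols. No aligner, counter or strand setting is stated there. Genome build hg19 comes from the submitters' processing notes, while 96.3% of the experiment 1 genes found in GENCODE 29 have its GRCh38 start and end; gene coordinates are those of the files. Large counts in experiment 2 appear rounded (all 26 values of at least 7 digits end in 0).

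The files were joined by symbol, 28443 genes directly and 242 through an older symbol, 28685 in all, with 16 ambiguous symbols left out; they hold 97.91% to 98.89% of each library's counts. The 8 libraries under 5-FU were fitted with edgeR 4.0.16 in R 4.3.3 (TMM, filterByExpr, quasi-likelihood test, experiment and genotype as terms, Benjamini-Hochberg over all tested genes), and the DMSO libraries alike. The treatment term was fitted on all 16. Each SE was taken from the log2 difference and the F statistic (difference over the square root of F). CPM uses TMM factors over all 16 libraries. Counts were simulated for 15564 genes of the 5-FU comparison, with changes set only in genes of at least 5 CPM and libraries drawn independently. The test recovered 74% and 82% of genes changed by -1 and 1 (log2), and 100% of those changed by -2 and 2. It also called 15 unchanged genes. These rates do not cover changed genes of lower counts or libraries that share a line.

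The 27 lists and the comparison were chosen with earlier results of these data known. Genes named are MDM2 and CDKN1A, the 12 largest increases and decreases among called genes of at least 5 CPM, and per list up to 3 called members of smallest p in each direction; further members are named for their role, some after their values were seen. Alternatives were DESeq2 1.42.0, its size factors, no filter, other terms and blocks, limma-voom 3.58.1, sums per line, single experiments, no mitochondrially encoded genes and leaving out each library. Added after seeing the data were exchanged cell numbers in the voom fit and in 8 sums of both treatments, and leaving out replicate 1 of both genotypes. Some genes are not reported here.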

Additional observations from a re-analysis of the deposited data

Results flagged for a closer look

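In 9 of 316 groups of 4 libraries, 1 library lay far from the other 3, its gap to the nearest of them exceeding Dixon's limit. For 4 values of a single normal sample, chance flags about 1 group in 20. Each group here holds 2 libraries of each experiment, so 9 of 316 cannot be set against that rate. Among the W329G libraries under 5-FU, replicate 4 was the highest for CCNG1 (110.7 CPM) and the lowest for INKA2 (23.9 CPM) and for the histone gene H2BC21 (3.973 CPM). Among the WT libraries, replicate 1 was the highest for C6orf15 (101.3 CPM) and for the fucosidase gene FUCA1 (66.23 CPM) and the lowest for NOLC1 (76.01 CPM). WT replicate 2 was the highest for COL3A1 (187.1 CPM) and for SLC7A1 (96.86 CPM), and WT replicate 3 the lowest for SUSD5 (5.244 CPM).

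For 59 of the genes named, the difference W329G minus WT under 5-FU departed from that under DMSO by the genotype by treatment term (adjusted p below 0.05, edgeR, same sign in both experiments), given here in log2 units. It was negative for the p53 feedback and arrest genes MDM2 (-1.84), TP53INP1 (-2.58), TRIAP1 (-1.08), PPM1D (-0.95), CCNG1 (-1.06), CDKN1A (-1.73), BTG2 (-1.97) and ZMAT3 (-1.93). The apoptosis genes FAS (-2.01), EDA2R (-1.36), BBC3 (-1.44), BAX (-0.88) and TNFRSF10B (-0.92) followed the same direction. So did the repair, metabolic and other targets RRM2B (-1.83), FDXR (-1.61), DRAM1 (-1.38), SESN1 (-1.83), FUCA1 (-1.34), ORAI3 (-1.68), RPS27L (-1.44), CYFIP2 (-1.65) and INKA2 (-1.61). Outside the p53 lists it was negative for INPP5D (-2.87), PIK3IP1 (-2.23), SESN3 (-1.45), NECTIN4 (-2.91), TSPAN11 (-2.36), SLC52A1 (-2.59) and TAP1 (-0.84). It was positive for the E2F and G1/S genes E2F1 (1.43), E2F2 (1.75), E2F8 (1.51), CCNE1 (1.27), CCNE2 (1.79), CDC25A (1.49) and SKP2 (0.82). Origin and helicase genes were CDT1 (1.31), CLSPN (1.45), CDC45 (1.31), MCM2 (1.25), MCM3 (1.11), MCM5 (1.22), MCM10 (1.35), ORC1 (1.27) and CDC6 (1.35). Recombination genes were EXO1 (1.58), BRCA1 (1.23), BRCA2 (1.37), XRCC3 (1.03) and FANCG (0.80), and fork and nucleotide genes CHAF1A (1.44), PRIM1 (1.16), ATAD2 (1.24), RRM2 (1.38) and UNG (0.98). The remaining ones were TP73 (1.86), FAM111B (1.88), HUNK (1.69) and CENPM (0.87). The largest in size was that of NECTIN4 among the negative and FAM111B among the positive ones.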

How the results depend on the processing

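Of 147 named genes called under 5-FU, all kept their call with DESeq2 size factors, the DESeq2 test, no filter and without mitochondrially encoded genes. A replicate block kept 143, leaving out replicate 1 of both genotypes 112 and sums of exchanged numbers 18. All 147 were kept with limma-voom by label, where libraries of a line correlated at -0.48. A negative value narrows the error of the genotype difference, so this count is no support. With exchanged numbers the correlation was 0.44, and 117 were kept. Directions turned for 2 genes that were never called: MDM4 (-0.046 without W329G replicate 2, up to 0.306 without W329G replicate 1) and CCNB1 (0.035 in experiment 1 alone). Higher and lower counts under 5-FU (918 and 987) became 1549 and 1595 with the DESeq2 test, 101 and 144 without the experiment term, 5 and 18 in experiment 1 alone and 1 and 15 in experiment 2 alone. They became 1733 and 1713 with sums per line by label, 2 and 24 with exchanged numbers, and 102 and 119 with 8 such sums in a single fit. With limma-voom they were 2472 and 2614 by label and 342 and 411 exchanged, 277 and 441 at a log2 size of 1, and 340 and 417 without replicate 1 of both genotypes. Leaving out single libraries gave 450 to 774 higher and 483 to 815 lower.

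The DMSO count of 6 became 357 with DESeq2, 594 without the filter, 2 without the experiment term, 0 in experiment 1 alone (674 at unadjusted p below 0.05), 21 with sums, 2 with exchanged sums, 157 with limma-voom and 152 in a fit of all 16, and 2 to 9 without single libraries. The treatment term's 198 became 472 with DESeq2, 1006 with the replicate block, 21 without the experiment term, 0 in either experiment alone, 127 with sums, 0 with exchanged sums, 540 with exchanged limma-voom, and 125 to 196 without single libraries. The causes of these shifts were not tested; single experiments and sums leave fewer libraries to the fit.

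With a replicate block of cell number and experiment, 933 genes were higher and 985 lower under 5-FU; same-numbered cells of the genotypes share only a number (r = -0.02 and 0.21 in the 2 experiments). The part of depth in genes of low counts was not tested.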
